A study of Mus musculus with 23 samples.

Results

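Stress fibre and smooth muscle contractile genes, 10 in number and measured by 35 probe sets, were followed through 23 single mouse cells, each hybridized to its own Affymetrix array carrying 45101 probe sets. The genes were Cald1, Actn1, Tpm3, Tpm4, Tpm2, Lasp1, Tagln, Cnn1, Myl9 and Myh9, and every probe set annotated to one of these symbols was taken, out of 18193 genes with a probe set of their own. The series asked whether RNA taken from one cell type can move another cell type towards it, a procedure the labels call TIPeR. The 5 fibroTIPeR cells were fibroblasts into which poly-A RNA from cardiomyocytes had been carried by a lipid reagent, and the 3 fibroControl cells were fibroblasts that received fibroblast RNA in the same way. The 6 astroTIPeR cells were astrocytes given the cardiomyocyte RNA, and the 2 astroControl cells were mock-transfected astrocytes. The 4 cardiomyocytes and the 3 fibroblasts were not transfected. All cells were isolated and cultured in DMEM with serum, single cells were drawn up with a glass pipette, and their RNA was amplified before labelling. The sources used here do not give strain, age, culture or animal, so that n counts cells and each p-value measures the spread between cells only. A single-cell signal reflects both the cell's content and the yield of the amplification, and these cannot be told apart.

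Stress fibres are bundles of actin filaments that fibroblasts and smooth muscle cells use to hold tension on their surroundings. Nonmuscle myosin slides the filaments, alpha-actinin bundles them, tropomyosins lie along them, and caldesmon, calponin and transgelin bind them in smooth muscle and in fibroblasts that take on a contractile state. Cardiomyocytes build sarcomeres from other, muscle-specific members of the same families. Many genes of smooth muscle contraction are switched on by serum response factor, which binds a short DNA element called the CArG box.

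Promoter stretches of 4 of the genes are shown, since they let that element be looked for in genes with large expression differences in the following paragraphs (Cald1, Actn1 and Tpm3) and in the gene where it was found (Myl9). RefSeq promoter windows on GRCm38.p6 were available for 9 of the 10 genes, 11 windows in all, and the 250 bases before each start were searched on both strands. Tagln had no window and was not searched. A CArG box was found in 1 of the 11 windows, that of Myl9, with its first base 161 bases before the start, against 1.47% of the 32851 windows of all genes. The GC box, GGGCGG or its complement CCGCCC, was found in 7 of the 11 windows, each of a different gene, against 32.7% of all windows. That of Tpm3 lay in its other window, which is not shown. Such a match is a description of the letters and not a binding site. Each stretch below runs 5′ to 3′ on the gene's strand and ends where the gene's annotated span begins or the transcript starts. Myl9 is shown from the plus strand of chr2:156775214-156775407, with its CArG box in capitals, and Actn1 from the minus strand of chr12:80260421-80260613, with 2 of its 4 GC boxes in capitals. Cald1 is shown from the plus strand of chr6:34598254-34598494 and Tpm3 from the plus strand of chr3:90072401-90072650, both without either motif.
Myl9: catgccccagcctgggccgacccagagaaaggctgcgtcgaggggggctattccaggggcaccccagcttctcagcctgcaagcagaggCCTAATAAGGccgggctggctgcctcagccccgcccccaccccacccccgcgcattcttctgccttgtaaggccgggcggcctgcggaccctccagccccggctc
Actn1: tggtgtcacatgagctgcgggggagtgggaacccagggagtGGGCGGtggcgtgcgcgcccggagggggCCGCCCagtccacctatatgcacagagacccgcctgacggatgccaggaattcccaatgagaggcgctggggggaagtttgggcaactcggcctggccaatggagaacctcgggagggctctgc
Cald1: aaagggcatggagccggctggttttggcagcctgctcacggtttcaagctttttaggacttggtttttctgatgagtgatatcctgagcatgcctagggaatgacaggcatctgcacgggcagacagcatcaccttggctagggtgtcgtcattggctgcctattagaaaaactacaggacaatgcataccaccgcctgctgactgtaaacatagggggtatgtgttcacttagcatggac
Tpm3: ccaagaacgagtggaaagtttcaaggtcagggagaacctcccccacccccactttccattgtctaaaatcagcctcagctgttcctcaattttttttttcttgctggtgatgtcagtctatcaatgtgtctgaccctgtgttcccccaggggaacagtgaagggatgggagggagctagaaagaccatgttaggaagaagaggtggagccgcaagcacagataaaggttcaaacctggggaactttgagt

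Values are log2 expression, quantile normalized here over all 23 arrays, on which the median of all probe sets was 5.05 and the 90th percentile 9.41. For each gene the probe set with the highest mean over all cells is called its lead. The deposited column medians ran from 5.05 to 5.58 in the 15 fibroblast and cardiomyocyte arrays and from 4.28 to 4.56 in the 8 astrocyte arrays, so that array set and cell type cannot be told apart where astrocytes are compared with cardiomyocytes. The 8 cardiomyocyte markers averaged 9.91 ± 0.73 in cardiomyocytes (SD, n = 4) and between 4.60 and 5.72 in the other groups. One of them, Tnnt2, averaged 7.99 in cardiomyocytes and 8.46 in fibroblasts, and the rest were highest in cardiomyocytes. The 9 fibroblast markers averaged 9.04, 9.95 and 9.09 in fibroTIPeR, fibroControl and fibroblast cells, and 6.52 in cardiomyocytes. Of these, Dcn (10.17 and 8.85) and Thy1 (8.02 and 6.28) were higher in cardiomyocytes than in fibroblasts, and Fn1 was alike (5.58 and 5.61). Vim, Col1a1, Col1a2, Col3a1, Pdgfra and S100a4 were higher in fibroblasts. The labelled astrocytes were not set apart by the 8 astrocyte markers, which averaged 7.63 in astroTIPeR and 6.97 in astroControl cells, against 8.02 in cardiomyocytes and 7.44 in fibroblasts, and Gfap, the defining astrocyte filament, ran from 3.54 to 6.28 in the astroTIPeR cells. The 5 smooth muscle markers outside the set averaged 6.36 in fibroTIPeR, 6.03 in fibroControl, 6.03 in astroTIPeR and 7.45 in astroControl cells, 5.89 in cardiomyocytes and 7.64 in fibroblasts. The 4 endothelial and 4 macrophage markers averaged between 5.07 and 6.54 in every group. The 18S control level averaged 10.5 in fibroTIPeR and 11.6 in fibroControl cells, against 7.48 in cardiomyocytes and 7.45 in fibroblasts.

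The genes behaved in several ways across the cells. The leads of Cald1, Actn1, Tpm3, Lasp1 and Myh9 were low in cardiomyocytes and high in every other group. Tagln varied most from cell to cell, Tpm4 varied within groups, and the 6 group means of Cnn1 lay between 5.35 and 6.40 and those of Myl9 between 3.79 and 4.64. The lead of Tpm2 was flat in all 23 cells, whereas a pair of its other probe sets followed the first set of genes.

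**Figure D1:**
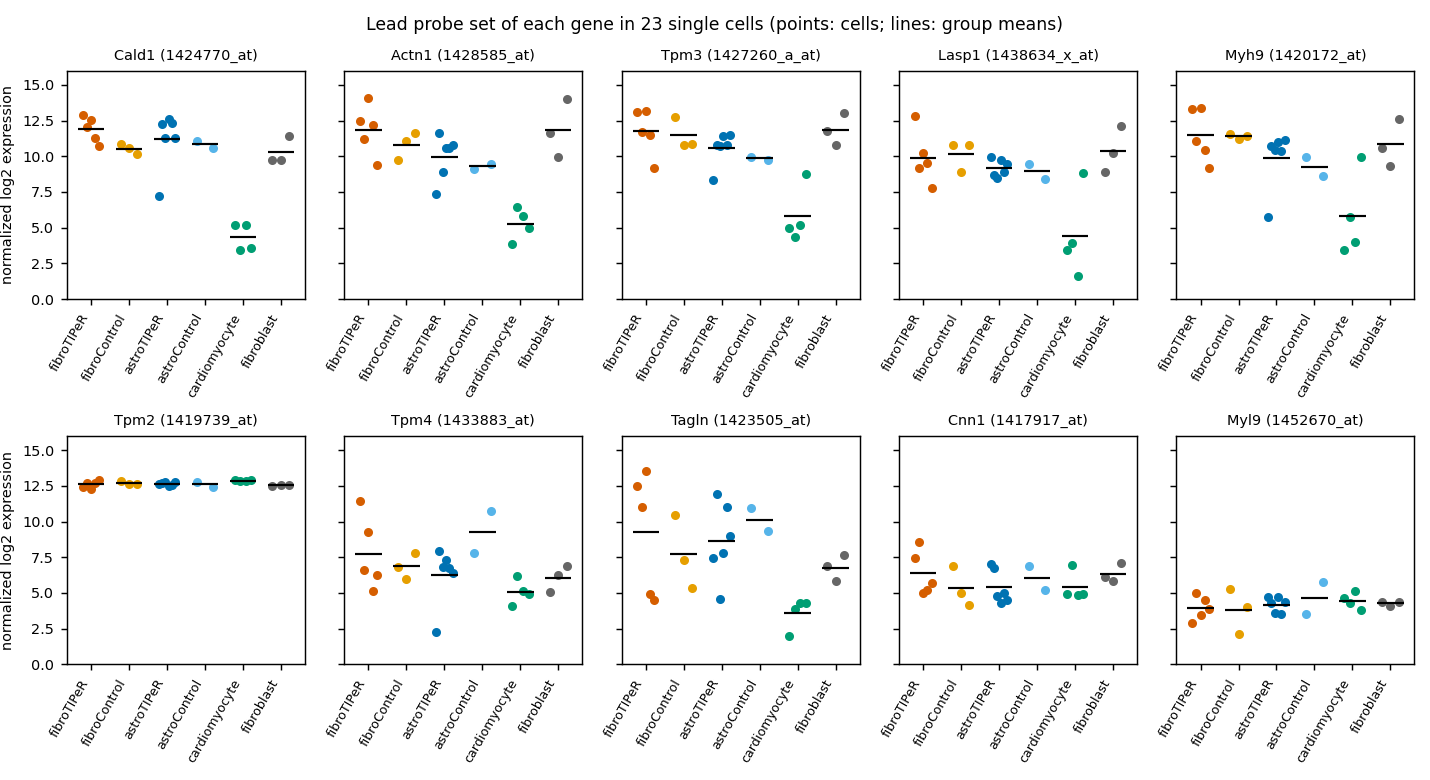
Normalized log2 expression (vertical axis) of the lead probe set of each of the 10 genes in the 6 groups (horizontal axis), with a point for each of the 23 cells and a line at each group mean. Cardiomyocytes sit lowest in Cald1, Actn1, Tpm3, Lasp1 and Myh9, with cardiomyocyte 4 above the other cardiomyocytes in the last 3 of these, and the Tpm2 lead is flat.

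Cardiomyocytes were set against untransfected fibroblasts to see how the contractile genes differ between donor and recipient cell types. By their leads Cald1, Actn1, Tpm3 and Lasp1 were lower in cardiomyocytes, with log2 differences of -5.95 to -6.56, and 1 further probe set of Tpm2 was lower, with -4.79. By limma, fitted over 45037 probe sets with Benjamini-Hochberg adjustment at 0.05, 5 of the 35 probe sets passed, all of them lower, against 0.127% of all probe sets tested, and 9 had an unadjusted p under 0.05, against 9.23% of all. With all probe sets of a gene averaged and fitted over 18193 genes, the differences were -2.76 for Cald1, -1.95 for Actn1, -1.21 for Tpm3 and -0.61 for Lasp1, and none of the 10 genes passed (0.0989% of all genes did), the limma adjusted p of these 4 running from 0.122 to 0.768. The cells of the groups did not overlap for 9 of the 35 in the lower direction, against 4.06% of all probe sets. These 4 leads had been picked out for their fall in an earlier analysis of the same cells, so their passing here is no independent support. The median difference of the 10 leads was -4.11, beside 0.087 for the leads of all 18193 genes. Since the 10 genes were chosen with earlier results of these data known, this median is a description and likewise no independent support.

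Cald1 (chr6:34598495-34775469, lead 1424770_at) encodes caldesmon, which binds actin and holds back myosin. It measured 5.21, 3.41, 5.18 and 3.54 in cardiomyocytes 1 to 4, against 9.74, 9.72 and 11.41 in fibroblasts 1 to 3. Every cardiomyocyte lay far under the lowest fibroblast, and the difference was -5.95 (SE 0.88, limma adjusted p = 0.00156). Actn1 (chr12:80167542-80260420, lead 1428585_at), which encodes the alpha-actinin that crosslinks stress fibre actin, measured 3.87, 6.47, 5.85 and 4.97 in cardiomyocytes, against 11.63, 9.94 and 13.98 in fibroblasts. The groups did not overlap, fibroblast 3 was the highest, and the difference was -6.56 (SE 0.99, limma adjusted p = 0.00198). Both genes passed in each of 7 fits that left out a single cell, with limma adjusted p-values of up to 0.0323 for Cald1 and 0.0464 for Actn1, both without fibroblast 3. The 8 cardiomyocyte markers averaged 6.42 in fibroblast 3, against 5.43 and 5.30 in fibroblasts 1 and 2. In it Tnnt2 was 11.28 and Myh6 8.48, whereas Tnni3 was 4.12 and Myl2 4.99. Its 9 fibroblast markers averaged 10.45, against 8.56 and 8.25 in fibroblasts 1 and 2. The B2 repeat control was 11.02 in it, against 6.66 and 7.34. The part of these in its high Cald1 and Actn1 was not tested.

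Tpm3 (chr3:90072651-90100902, lead 1427260_a_at) encodes a tropomyosin made both in slow skeletal muscle and, as other isoforms, in nonmuscle cells. It measured 4.95, 4.33, 5.20 and 8.76 in cardiomyocytes, against 11.79, 10.77 and 13.01 in fibroblasts, a difference of -6.04 (SE 0.93, limma adjusted p = 0.00233). Lasp1 (chr11:97799005-97838765, lead 1438634_x_at), an actin-binding protein with LIM and SH3 domains, measured 3.40, 3.91, 1.63 and 8.82 in cardiomyocytes, against 8.87, 10.22 and 12.12 in fibroblasts, a difference of -5.96 (SE 1.19, limma adjusted p = 0.0310). In both genes cardiomyocyte 4 stood far above the other cardiomyocytes, and for Lasp1 it lay just under the lowest fibroblast. Myh9 (chr15:77760585-77842175, lead 1420172_at), the heavy chain of nonmuscle myosin IIA, measured 3.40, 5.77, 4.01 and 9.98 in cardiomyocytes, against 10.61, 9.32 and 12.64 in fibroblasts. Here cardiomyocyte 4 lay above fibroblast 2, and the difference of -5.07 (SE 1.27) did not pass (limma adjusted p = 0.138).

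Cardiomyocyte 4 carried the heart troponin Tnni3 at 12.24 and the mesenchymal filament vimentin, Vim, at 11.38, whereas Vim was 4.65, 4.17 and 3.05 in cardiomyocytes 1 to 3. The mean of the 9 fibroblast markers was 8.07 in it, against 6.18, 5.56 and 6.27 in the other 3. The part of these transcripts in its high Tpm3, Lasp1 and Myh9 was not tested. Without it the differences were -7.03 for Tpm3, -7.42 for Lasp1 and -6.46 for Myh9, and Myh9 then passed (limma adjusted p = 0.0115). The count of member probe sets that passed was 3 without fibroblast 2, without fibroblast 3, or without cardiomyocyte 1, 2 or 3. In these fits 0.0422% to 0.233% of all probe sets passed. Lasp1 passed in 2 of the 7 fits that left out a cell. With only these 7 cells in the fit, none of the 35 probe sets passed (0.02% of all did), the smallest limma adjusted p being 0.0512 for Cald1 and Actn1. The 18S level averaged 7.48 in cardiomyocytes and 7.45 in fibroblasts, and with it as a covariate 8 of the 35 passed, against 0.295% of all probe sets.

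Transgelin, calponin and myosin light chain differed less. Tagln (chr9:45929628-45936058, its only probe set 1423505_at), which encodes an actin-binding protein abundant in smooth muscle, measured 2.02, 3.91, 4.29 and 4.29 in cardiomyocytes, against 6.90, 5.82 and 7.63 in fibroblasts. The groups did not overlap, and the difference of -3.16 (SE 1.76) did not pass (limma adjusted p = 0.601). Cnn1 (chr9:22099221-22109221), which encodes smooth muscle calponin, averaged 5.41 ± 1.03 in cardiomyocytes (SD, n = 4) and 6.34 ± 0.66 in fibroblasts (n = 3). Myl9 (chr2:156775408-156781657), a regulatory light chain of smooth muscle and nonmuscle myosin, averaged 4.46 ± 0.57 in cardiomyocytes and 4.29 ± 0.14 in fibroblasts. Myl9 lay below the median of all probe sets in all 6 group means, and no level of background was set, so that a low value here does not separate weak from absent signal.

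The remaining tropomyosins were Tpm4 and Tpm2. Tpm4 (chr8:72135288-72153142, its only probe set 1433883_at), a nonmuscle tropomyosin of stress fibres, measured 4.09, 6.21, 5.11 and 4.94 in cardiomyocytes, against 5.06, 6.27 and 6.87 in fibroblasts. These groups overlapped and the difference was -0.98 (95% interval -3.55 to 1.60). Tpm2 (chr4:43513726-43523583), which encodes beta-tropomyosin of smooth and skeletal muscle, gave a split result among its 4 probe sets. Its lead 1419739_at stayed between 12.31 and 12.91 in all 23 cells. Its probe set 1419738_a_at measured 5.10, 5.20, 6.64 and 6.19 in cardiomyocytes, against 9.86, 10.10 and 11.74 in fibroblasts, a difference of -4.79 (SE 0.999, limma adjusted p = 0.0447). The groups did not overlap in that probe set, and 1425028_a_at differed by -4.53 (limma adjusted p = 0.0868) in the same direction.

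**Figure D2:**
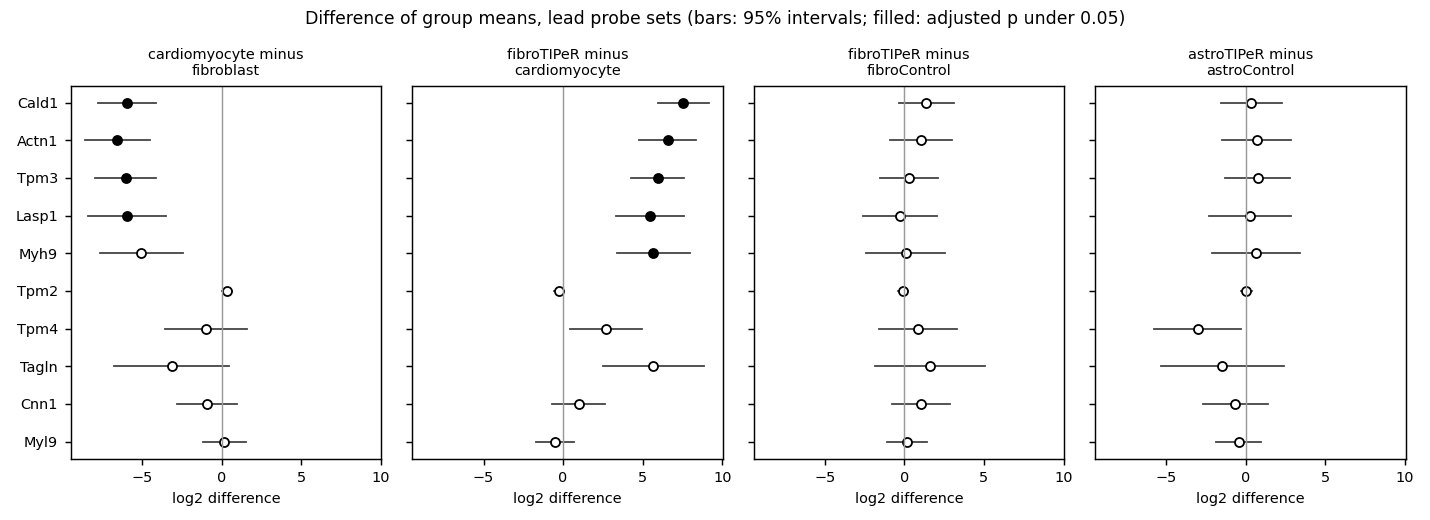
Difference of group means in log2 units (horizontal axis) for the lead probe set of each gene (rows) in 4 comparisons, with 95% intervals of the limma fit as bars and filled points where the adjusted p is under 0.05. Leads of 4 genes pass in cardiomyocyte minus fibroblast, 5 in fibroTIPeR minus cardiomyocyte, and none in either comparison of TIPeR cells with their transfected or mock-transfected controls.

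FibroTIPeR cells were set against fibroControl cells, which had received fibroblast RNA by the same route, to see what the cardiomyocyte RNA did to these genes. No member probe set passed by limma (0 of 35, against 0.00222% of all probe sets, 1 of 45037), and 1 of the 35 had an unadjusted p under 0.05, against 6.4% of all. The count was 0 of 35 under every alternative run for this comparison as well. Cald1 had the smallest p of the leads. It measured 12.89, 12.05, 12.56, 11.29 and 10.71 in fibroTIPeR cells 1 to 5, against 10.87, 10.57 and 10.18 in fibroControl cells 1 to 3. FibroTIPeR cell 5 lay under fibroControl cell 1, and the difference was 1.36 (95% interval -0.37 to 3.09, limma adjusted p = 0.854). Cnn1 averaged 6.40 ± 1.57 in fibroTIPeR (SD, n = 5) and 5.35 ± 1.39 in fibroControl cells (n = 3), a difference of 1.05 (95% interval -0.76 to 2.87, limma adjusted p = 0.900). With a single cell left out it ran from 0.46 to 1.82. The median over the 10 leads was 0.58, beside -0.020 for all genes.

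The other genes whose leads were low in cardiomyocytes were read in turn for a fall towards the cardiomyocyte level. Actn1 measured 12.47, 11.20, 14.10, 12.16 and 9.37 in fibroTIPeR cells, against 9.77, 11.07 and 11.61 in fibroControl cells. Tpm3 measured 13.10, 11.72, 13.20, 11.52 and 9.20 in fibroTIPeR cells, against 12.74, 10.76 and 10.89 in fibroControl cells. Lasp1 measured 12.85, 9.20, 10.23, 9.51 and 7.77 in fibroTIPeR cells, against 10.80, 8.87 and 10.82 in fibroControl cells. In all 3 genes the groups overlapped and fibroTIPeR cell 5 was the lowest of the 8 cells. The 95% intervals were -0.90 to 2.99 for Actn1, -1.53 to 2.11 for Tpm3 and -2.58 to 2.07 for Lasp1, and that of Myh9 was -2.42 to 2.57. None of them reaches the lead differences of -5.07 to -6.56 between cardiomyocytes and fibroblasts in these 4 genes, but all include smaller falls. Of those differences, the -5.07 of Myh9 did not pass and its groups overlapped. The leads of Actn1, Tpm3 and Lasp1 had been picked out earlier for their fall in these cardiomyocytes, so their differences are no independent yardstick. With all probe sets of a gene averaged they were -1.95 for Actn1, -1.21 for Tpm3, -0.61 for Lasp1 and -1.69 for Myh9.

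The untransfected fibroblasts gave a further control. In fibroTIPeR minus fibroblast, 0 of 35 probe sets passed by limma (0.00444% of all probe sets did) and 5 had an unadjusted p under 0.05, against 10.5% of all. Cald1 averaged 11.90 ± 0.90 in fibroTIPeR cells (SD, n = 5) and 10.29 ± 0.97 in fibroblasts (n = 3), a difference of 1.61 (SE 0.84, limma adjusted p = 0.516). In fibroControl minus fibroblast, which shares these fibroblasts, 0 of 35 passed (1.32% of all probe sets did) and 4 had an unadjusted p under 0.05, against 16.7% of all. The leads with the smallest p there were Cnn1, at 5.35 in fibroControl cells and 6.34 in fibroblasts (difference -0.997, limma adjusted p = 0.659), and Actn1, at 10.82 in fibroControl cells and 11.85 in fibroblasts (difference -1.03, limma adjusted p = 0.672). With a single cell left out they ran from -1.76 to -0.41 for Cnn1 and from -1.99 to 0.032 for Actn1. The 18S level averaged 11.6 in fibroControl cells and 7.45 in fibroblasts, and 0 of the 35, and 0% of all probe sets, passed with it as a covariate. The cells of these groups did not overlap in 18S level, so that fit cannot tell 18S level and group apart.

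Tagln set fibroTIPeR cells 1 to 3 apart from cells 4 and 5. It measured 12.46, 11.02, 13.53, 4.96 and 4.50 in fibroTIPeR cells 1 to 5, against 10.48, 7.30 and 5.37 in fibroControl cells and 6.90, 5.82 and 7.63 in fibroblasts. FibroTIPeR cells 1 to 3 lay above every fibroControl cell and every fibroblast, and cells 4 and 5 lay below them all. The difference over the 5 cells was 1.58 against fibroControl cells (95% interval -1.88 to 5.03) and 2.51 against fibroblasts (SE 1.69, limma adjusted p = 0.641), and neither passed. The difference against fibroblasts ran from 1.45 to 3.71 with a single cell left out.

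Several signs of RNA quality, though not all, moved with this split, and their part in it was not tested. The 18S control level was 12.4, 11.03 and 13.5 in fibroTIPeR cells 1 to 3 and 7.80 and 7.88 in cells 4 and 5, against 12.1, 11.2 and 11.6 in fibroControl cells and 7.05, 7.25 and 8.06 in fibroblasts. The signal of the Actb probe set at the 3′ end less that at the 5′ end was 4.43, 2.77 and 6.53 in fibroTIPeR cells 1 to 3 and 0.96 and -0.34 in cells 4 and 5, against 2.70 to 4.45 in fibroControl cells and -1.05 to 0.23 in fibroblasts. The B2 repeat control was 13.2, 11.8 and 13.6 in fibroTIPeR cells 1 to 3 and 8.31 and 8.52 in cells 4 and 5. The 3′ less 5′ signal of Gapdh did not follow the split. It was 5.44, 3.16 and 5.01 in cells 1 to 3 and 4.55 and 2.93 in cells 4 and 5. Apart from these quality signs, the 5 smooth muscle markers outside the set averaged 7.06, 7.10 and 6.70 in cells 1 to 3 and 5.31 and 5.62 in cells 4 and 5. Of these markers Acta2 varied most in fibroTIPeR cells, from 4.14 to 12.79 (SD 4.09). The SDs of Myh11, Smtn, Lmod1 and Des ran from 0.73 to 1.29, so the mean need not stand for all 5. The Cald1 probe set 1424768_at split in the same way, at 11.23, 10.17, 12.41, 7.78 and 5.32 in the 5 fibroTIPeR cells, against 4.69, 8.54 and 4.37 in fibroControl cells. With the 18S level as a covariate the Tagln difference between fibroTIPeR cells and fibroblasts was -1.88, with fibroTIPeR cells 4 and 5 alone it was -2.05, and with cells 1 to 3 alone it was 5.55. Because the cells parted by 18S level are also those parted by Tagln, the value of either subset is a description and no support for a difference. With cells 1 to 3 alone, 4 of the 35 probe sets passed against fibroblasts, against 2.94% of all probe sets, those of Tagln, Cald1 (1424768_at, difference 5.35), Tpm3 (1436958_x_at, 4.74) and Lasp1 (1439264_x_at, 4.01), all higher in fibroTIPeR cells. Against fibroControl cells, with 18S levels of 11.2 to 12.1, none passed with cells 1 to 3 alone (0.00666% of all did).

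**Figure D3:**
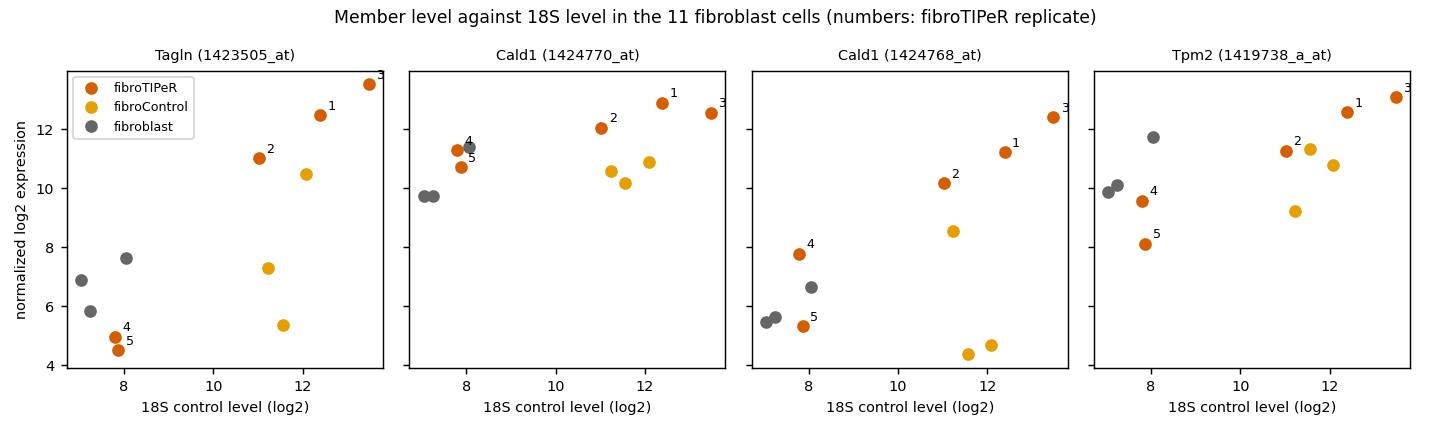
Normalized log2 expression of 4 member probe sets (vertical axis) against the 18S control level in log2 units (horizontal axis) in 5 fibroTIPeR, 3 fibroControl and 3 fibroblast cells, with fibroTIPeR cells numbered. FibroTIPeR cells 1 to 3 lie at 18S levels of 11.03 or more with Tagln at 11.02 or more, and cells 4 and 5 lie under 8 on the horizontal axis with Tagln at 4.96 and 4.50.

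FibroTIPeR cells were also set against the cardiomyocytes whose RNA type they had received, to see how far they still stood from that cell type. The leads that were low in cardiomyocytes were high in fibroTIPeR cells. By limma 9 of the 35 probe sets passed, all higher in fibroTIPeR cells, against 0.56% of all probe sets, and 10 were higher without overlap, against 1.88%. The cardiomyocytes are those in which Cald1, Actn1, Tpm3 and Lasp1 had been picked out earlier for their fall, so these counts are no independent support. Cald1 averaged 11.90 ± 0.90 in fibroTIPeR cells (SD, n = 5) and 4.34 ± 0.99 in cardiomyocytes (n = 4), a difference of 7.56 (SE 0.77, limma adjusted p = 1.81e-06). Actn1 averaged 11.86 ± 1.74 in fibroTIPeR cells and 5.29 ± 1.13 in cardiomyocytes, a difference of 6.57 (SE 0.87, limma adjusted p = 0.000140). Every fibroTIPeR cell lay above every cardiomyocyte in both genes.

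Tpm3 differed by 5.94 (SE 0.81, limma adjusted p = 0.000248), Lasp1 by 5.47 (SE 1.04, limma adjusted p = 0.00968) and Myh9 by 5.68 (SE 1.12, limma adjusted p = 0.0129). Cardiomyocyte 4 overlapped fibroTIPeR cells in Lasp1 and Myh9 but not in Tpm3. The further 4 probe sets that passed belonged to Cald1 (1424769_s_at, 5.71, and 1424768_at, 5.49) and Tpm2 (1425028_a_at, 5.46, and 1419738_a_at, 5.14). Tagln lay higher without overlap by 5.67 and did not pass (SE 1.55, limma adjusted p = 0.0956). Leaving out single cells kept Lasp1 past the threshold in 8 of 9 fits (limma adjusted p = 0.0671 without cardiomyocyte 3) and Myh9 in 5 of 9 (up to 0.0771, without cardiomyocyte 1). With only these groups in the fit 4 of the 35 passed (0.091% of all did), and Lasp1 (limma adjusted p = 0.140) and Myh9 (0.0993) did not. With the 18S level as a covariate, or with fibroTIPeR cells 4 and 5 alone, Cald1 at 6.35 and 6.67 was the 1 probe set of the 35 that passed, against 0.0422% and 0.0311% of all probe sets, whereas 18 passed with cells 1 to 3 alone, against 4.59% of all. The 18S level was 11.03 or more in fibroTIPeR cells 1 to 3 and at most 8.24 in cardiomyocytes. For those cells the covariate fit cannot tell 18S level and group apart. With all probe sets of a gene averaged, 4 of the 10 genes passed, against 0.385% of all genes: Cald1 at 3.297, Tpm2 at 3.14, Actn1 at 2.73 and Tpm3 at 1.98, whereas Myh9 at 2.42 (limma adjusted p = 0.0898) and Lasp1 at 1.25 (0.246) did not.

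FibroControl cells gave a parallel result against the same 4 cardiomyocytes. By limma 10 of the 35 probe sets passed, all higher in fibroControl cells, against 2.48% of all probe sets, and 13 were higher without overlap, against 7.7%. The leads that passed were Cald1 (6.21, SE 0.88), Lasp1 (5.72, SE 1.19), Tpm3 (5.65, SE 0.93), Myh9 (5.61, SE 1.27) and Actn1 (5.53, SE 0.99), with limma adjusted p-values from 0.000459 for Cald1 to 0.0164 for Myh9. Myh9 passed in 2 of 7 fits that left out a cell (limma adjusted p of up to 0.0599, without cardiomyocyte 1). The count was 5 without fibroControl cell 1 and 5 without cell 3, and 0 passed with the 18S level as a covariate (0.0222% of all did), where Cald1 still differed by 4.55 (limma adjusted p = 0.329). The 18S level ran from 11.2 to 12.1 in fibroControl cells and from 6.94 to 8.24 in cardiomyocytes. Since these do not overlap, the covariate fit cannot tell 18S level and group apart. With all probe sets of a gene averaged, Cald1 at 2.42 and Tpm3 at 1.80 passed, 2 of 10 against 2.61% of all genes, and Actn1, Myh9 and Lasp1 did not (limma adjusted p from 0.0505 to 0.134). The values of the fibroTIPeR and fibroControl comparisons share their cardiomyocytes and are set side by side here without a test. Leads picked out earlier for their fall in these cardiomyocytes gain no independent support from passing here.

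AstroTIPeR cells were set against mock-transfected astrocytes to ask the same of astrocytes. By limma 0 of the 35 probe sets passed, against 0.127% of all probe sets (57 of 45037), and 2 had an unadjusted p under 0.05, against 9.81% of all. Tpm4 ran from 2.30 over a median of 6.77 to 7.94 in the 6 astroTIPeR cells, against 7.82 and 10.73 in the astroControl cells. The astroTIPeR cells overlapped the lower astroControl cell, and the difference was -3.03 (SE 1.34, limma adjusted p = 0.441), or -4.49 to -1.57 with a single cell left out. Tagln ran from 4.58 over 8.41 to 11.93 in astroTIPeR cells, against 10.96 and 9.32 in astroControl cells, a difference of -1.50 (95% interval -5.36 to 2.37, limma adjusted p = 0.877), or -2.32 to -0.68 with a single cell left out. Among the other probe sets, Actn1 1452415_at, named after its values were seen, averaged 3.38 in astroTIPeR and 6.19 in astroControl cells without overlap (limma adjusted p = 0.104) and was the 1 member probe set that passed on the values as deposited (0.442% of all did) and with each array set normalized by itself (0.517%). Cald1 averaged 11.18 ± 2.01 in astroTIPeR cells (SD, n = 6) and 10.83 ± 0.36 in astroControl cells (n = 2), a difference of 0.35 (95% interval -1.58 to 2.28).

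AstroTIPeR cell 1 was the lowest of its group in Cald1 (7.22), Actn1 (7.34), Tpm3 (8.36), Tpm4 (2.30), Myh9 (5.77) and the Tpm2 probe set 1419738_a_at (6.69), but the highest in Lasp1 (9.97). Its Vim, at 9.66, was also the lowest of the 6, whose others lay at 11.83 or more. Its 18S level was 7.63, the lowest of the group, whose others ran from 8.46 to 9.57.

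Against cardiomyocytes, astroTIPeR cells gave 8 of 35 probe sets that passed by limma, all higher in astroTIPeR cells, against 1.87% of all probe sets, and 5 were higher without overlap, against 3.41%. Here too the cardiomyocytes are those in which 4 of the leads had been picked out earlier, so the counts are no independent support. Cald1 averaged 11.18 ± 2.01 in astroTIPeR cells (SD, n = 6) and 4.34 ± 0.99 in cardiomyocytes (n = 4), a difference of 6.84 (SE 0.74, limma adjusted p = 4.22e-06). Tpm3 differed by 4.79, Lasp1 by 4.76, Actn1 by 4.68 and Myh9 by 4.12, with limma adjusted p-values from 0.000846 for Tpm3 to 0.0414 for Myh9. Left-out cells gave 4 to 10 member probe sets that passed: 4 without cardiomyocyte 2 or astroTIPeR cell 2, and 5 without cardiomyocyte 1 or 3 or without astroTIPeR cell 4, 5 or 6. Over the fits that left out a cell, 0.941% to 1.92% of all probe sets passed. Myh9 passed in 2 of these 10 fits (it did not pass without cardiomyocyte 1, for example) and Lasp1 in 9 (0.0540 without cardiomyocyte 3). With all probe sets of a gene averaged, Cald1 at 2.59 and Tpm3 at 1.87 passed, 2 of 10 against 2.03% of all genes, and Actn1, Myh9 and Lasp1 did not (limma adjusted p from 0.0699 to 0.540).

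Whether further probe sets passed as lower depended on how the array sets were scaled, and no probe set called in the main fit changed direction. On the values as deposited 10 of the 35 passed as higher and 5 as lower in astroTIPeR cells, against 29% of all probe sets, of which 797 were higher and 12263 lower, and the median difference of all probe sets was -0.997. With each array set normalized by itself 9 passed as higher and 4 as lower, against 24.1% of all, with a median of -0.89. With columns centred on their medians 12 passed, all higher, against 9.16% of all. The 5 that were lower on the deposited values were Myl9 (-1.47) and other probe sets of Cald1 (1433146_at, -2.64), Lasp1 (1460173_at, -2.53, and 1456469_x_at, -1.79) and Tpm3 (1449996_a_at, -1.53), whereas the leads of Cald1, Actn1, Tpm3, Lasp1 and Myh9 stayed higher under all 3.

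The test of whether the difference between TIPeR and control cells was itself different in fibroblasts and astrocytes, fibroTIPeR minus fibroControl less astroTIPeR minus astroControl, called 0 of 35 probe sets by limma, and 0% of all probe sets, with 3 of the 35 at an unadjusted p under 0.05, against 7.99% of all. Tpm4 had the largest difference of the leads, 3.90 (SE 1.80, limma adjusted p = 0.593), made of 0.87 in fibroblasts and -3.03 in astrocytes. Tagln followed in size at 3.07, made of 1.58 and -1.50. Cnn1, next to Tpm4 by p, differed by 1.71 (SE 1.33, limma adjusted p = 0.797). With a single cell left out the differences ran from 2.44 to 5.35 for Tpm4 and from 0.83 to 2.58 for Cnn1.

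The probe sets of a gene often disagreed. Of the 25 probe sets that were not leads, 8 correlated with their lead at r over 0.5 over the 23 cells, 17 at 0.5 or less, and 14 of those below 0. These coefficients describe cells that share a normalization and may differ in the yield of the amplification, and most of their range lies between cardiomyocytes and the rest. The agreeing probe sets were 1420171_s_at (r = 0.87) and 1417472_at (0.51) of Myh9, 1424769_s_at (0.87) and 1424768_at (0.70) of Cald1, 1436958_x_at (0.67) of Tpm3, and 3 of the 8 others of Lasp1 (0.54 to 0.62). Neither other probe set of Actn1 followed its lead (0.28 and 0.19), and both averaged under the median of all probe sets, at 4.07 and 3.89, against 9.86 for the lead. In all, 9 of the 25 averaged under that median.

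Tpm2 disagreed the most. Its lead 1419739_at had a range of 0.59 over all cells, whereas 1419738_a_at ranged over 7.99 and 1425028_a_at over 7.93, and their correlations with the lead were -0.59 and -0.61. Cald1 1433147_at, which averaged 8.95, also went apart from its lead (r = -0.11) and measured 10.51 and 10.43 in cardiomyocytes 1 and 2, where the lead measured 5.21 and 3.41. Lasp1 is read from a lead whose name ends in _x_at. Affymetrix probe sets of this class have some probes that match other sequences, so its value may not belong to Lasp1 alone. The Lasp1 probe sets with r over 0.5 to the lead all end in _x_at too. Of those without this ending, 1460173_at (r = -0.35) averaged 8.37 in cardiomyocytes and 7.45 in fibroblasts. The other, 1448207_at (r = -0.08), averaged 5.24 and 4.63. In both, the cells of these groups overlapped, and neither showed the lead's fall in cardiomyocytes. Averaging all 3 probe sets in place of the lead left Actn1 in fibroControl minus fibroblast at 0.38, against -1.03 for the lead.

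**Figure D4:**
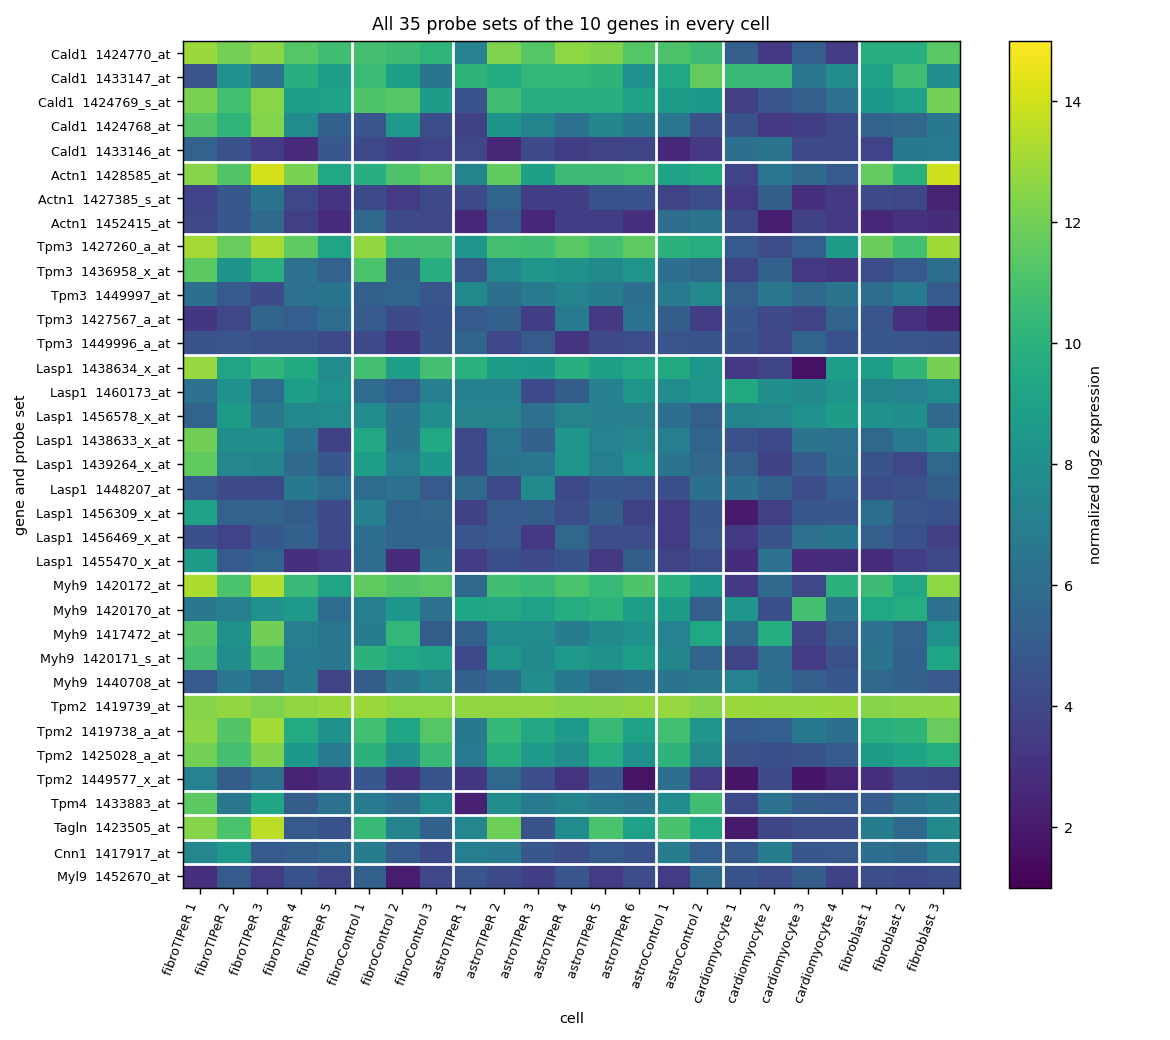
Normalized log2 expression (colour) of all 35 probe sets, grouped by gene in rows with the lead first, in each of the 23 cells, grouped in columns. The leads of Cald1, Actn1, Tpm3, Lasp1 and Myh9 are dark in cardiomyocytes, the Tpm2 lead is bright in every cell, and both other probe sets of Actn1 are dark in nearly all cells.

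Among the leads, Tpm3 and Myh9 varied most closely together over the 23 cells (r = 0.94), followed by Tpm3 and Lasp1 (0.89) and Actn1 and Tpm3 (0.87). Cnn1 and Myl9 did not follow Cald1 (r = 0.09 and -0.20). Over the 15 fibroblast and cardiomyocyte cells, the genes outside the set whose lead was most like the mean of the 10 leads were the cytoplasmic actins Actb (r = 0.96) and Actg1 (0.96), the dynein light chain Dynll1 (0.96), the calcium-binding S100a6 (0.95) and Morf4l2 (0.95). These 15 cells fall into a low cardiomyocyte set and a high fibroblast set, and the coefficients span that gap.

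A list of 52 other genes of stress fibre assembly, actomyosin regulation and serum response factor targets, of which 50 were measured, was read beside them. By limma 0 of the 50 leads passed in cardiomyocyte minus fibroblast, where their median difference was -0.069 with 22 above and 28 below 0, and 9 had an unadjusted p under 0.05, against 9.23% of all probe sets. The list likewise had 0 passing leads in fibroTIPeR minus fibroControl, fibroTIPeR minus fibroblast, fibroControl minus fibroblast, astroTIPeR minus astroControl and the test between recipient types, with 1 to 8 at an unadjusted p under 0.05, against 6.4% to 16.7% of all probe sets. Against cardiomyocytes, Actb and Actg1 passed as higher in all 3 recipient groups, with Actb differing by 5.69 in fibroTIPeR, 5.21 in fibroControl and 4.90 in astroTIPeR cells. They were the only 2 of the 50 that passed in fibroTIPeR and fibroControl cells, against 0.56% and 2.48% of all probe sets. In astroTIPeR cells 2 of the 50 passed as higher and 1 as lower, against 1.87% of all. Lima1, a LIM-domain protein of actin filaments, was lower in astroTIPeR cells than in cardiomyocytes by -2.71 (limma adjusted p = 0.0296), the only one of the 50 that passed as lower in any of the comparisons run.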

How the data were processed

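The authors deposited log2 expression values per probe set for single cells whose RNA was amplified, labelled and hybridized to Affymetrix mouse arrays, per the labels' protocols. The sources used here do not say how the values were summarized, scaled and normalized. No depth applies to arrays, whose number limits the precision. The log2 scale was judged from the range of the deposited values. Because column medians differed by 1.29, above the limit of 1 log2 unit, columns were quantile normalized here. Of 45101 probe sets, 64 controls were left out. GEO's platform annotation gave 34945 probe sets 1 gene symbol and 932 several, and 9160 were unlisted. Columns were matched to cells by the table's own sample names, and no column went unmatched (0). Groups came from the titles.

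Each probe set was fitted with limma 3.58.1 in R 4.3.3: a mean per group over all 23 cells, eBayes with trend, two-sided tests and Benjamini-Hochberg adjustment at 0.05. The script was tested on simulated data with known changes. All 10 genes are described, with the lead that passed in a comparison or, where none did, the 2 leads of smallest p. Both the genes and the lists were chosen with earlier results of these data known. Alternatives changed the normalization, the probe sets tested, the variance model, the cells in the fit, a replicate block and an 18S covariate. Sequences are RefSeq's on GRCm38.p6. Python 3.11.15 with matplotlib 3.10.9 drew the figures.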

Additional observations from a re-analysis of the deposited data

Results flagged for a closer look

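In the 3 groups of 4 to 6 cells, 33 sets of values, those of the 10 leads and of their mean, were examined for a cell whose gap to the nearest other cell was too large a part of the group's range by Dixon's test, and 6 had one. Chance flags about 1 in 20 groups. The 33 sets hold the same cells and many leads vary together, so they are not independent, and 6 of 33 cannot be weighed against that share. AstroTIPeR cell 1 stood low in 4 genes: Cald1 at 7.22, against 11.29 to 12.61 in the other astroTIPeR cells, Tpm3 at 8.36, against 10.69 to 11.52, Tpm4 at 2.30, against 6.41 to 7.94, and Myh9 at 5.77, against 10.40 to 11.16. Cardiomyocyte 1 stood low in Tagln at 2.02, against 3.91 to 4.29 in the other cardiomyocytes. Cardiomyocyte 2 stood high in Cnn1 at 6.95, against 4.82 to 4.95 in the others. Cardiomyocyte 4, which was high in Tpm3, Lasp1, Myh9 and Vim, did not pass this test.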

How the results depend on the processing

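Changes of setting that moved a count by over 1.5 times are given here, and their cause was not tested unless stated. The counts of all probe sets that passed by limma were 57 in cardiomyocyte minus fibroblast, 1 in fibroTIPeR minus fibroControl, 2 in fibroTIPeR minus fibroblast, 596 in fibroControl minus fibroblast, 252 in fibroTIPeR minus cardiomyocyte, 1117 in fibroControl minus cardiomyocyte, 57 in astroTIPeR minus astroControl, 841 in astroTIPeR minus cardiomyocyte and 0 in the test between fibroblasts and astrocytes. On the values as deposited, all probe sets that passed numbered 36 in cardiomyocyte minus fibroblast, 22 in fibroTIPeR minus fibroblast, 278 in fibroControl minus fibroblast, 148 in fibroTIPeR minus cardiomyocyte, 687 in fibroControl minus cardiomyocyte, 199 in astroTIPeR minus astroControl, 13060 in astroTIPeR minus cardiomyocyte and 4 in the test between fibroblasts and astrocytes, and of the member probe sets, 1 in astroTIPeR minus astroControl and 15 in astroTIPeR minus cardiomyocyte passed. With columns centred on their medians, all probe sets that passed numbered 31 in cardiomyocyte minus fibroblast, 0 in fibroTIPeR minus fibroControl, 1 in fibroTIPeR minus fibroblast, 229 in fibroControl minus fibroblast, 140 in fibroTIPeR minus cardiomyocyte, 717 in fibroControl minus cardiomyocyte, 173 in astroTIPeR minus astroControl, 4125 in astroTIPeR minus cardiomyocyte and 2 in the test between fibroblasts and astrocytes, and of the member probe sets, 3 in cardiomyocyte minus fibroblast passed. With quantile normalization within each array set, all probe sets that passed numbered 35 in cardiomyocyte minus fibroblast, 0 in fibroTIPeR minus fibroControl, 1 in fibroTIPeR minus fibroblast, 284 in fibroControl minus fibroblast, 143 in fibroTIPeR minus cardiomyocyte, 233 in astroTIPeR minus astroControl, 10866 in astroTIPeR minus cardiomyocyte and 5 in the test between fibroblasts and astrocytes, and of the member probe sets, 1 in astroTIPeR minus astroControl and 13 in astroTIPeR minus cardiomyocyte passed. With 1 probe set per gene, where fewer were tested, all probe sets that passed numbered 10 in fibroTIPeR minus fibroblast, 283 in fibroControl minus fibroblast, 102 in fibroTIPeR minus cardiomyocyte, 604 in fibroControl minus cardiomyocyte, 9 in astroTIPeR minus astroControl and 387 in astroTIPeR minus cardiomyocyte, and of the 10 leads tested, 5 in fibroTIPeR minus cardiomyocyte, 5 in fibroControl minus cardiomyocyte and 5 in astroTIPeR minus cardiomyocyte passed. With probe sets above the median level alone, all probe sets that passed numbered 0 in fibroTIPeR minus fibroControl, 1 in fibroTIPeR minus fibroblast and 19 in astroTIPeR minus astroControl. Without the trend in eBayes, all probe sets that passed numbered 36 in cardiomyocyte minus fibroblast, 0 in fibroTIPeR minus fibroControl, 0 in fibroTIPeR minus fibroblast and 147 in fibroTIPeR minus cardiomyocyte, and of the member probe sets, 3 in cardiomyocyte minus fibroblast passed. With the cells of the compared groups alone, all probe sets that passed numbered 9 in cardiomyocyte minus fibroblast, 0 in fibroTIPeR minus fibroControl, 0 in fibroTIPeR minus fibroblast, 131 in fibroControl minus fibroblast, 41 in fibroTIPeR minus cardiomyocyte, 1716 in fibroControl minus cardiomyocyte and 1813 in astroTIPeR minus cardiomyocyte, and of the member probe sets, 0 in cardiomyocyte minus fibroblast and 4 in fibroTIPeR minus cardiomyocyte passed. With the 18S level as a covariate, all probe sets that passed numbered 133 in cardiomyocyte minus fibroblast, 9 in fibroTIPeR minus fibroControl, 0 in fibroTIPeR minus fibroblast, 0 in fibroControl minus fibroblast, 19 in fibroTIPeR minus cardiomyocyte, 10 in fibroControl minus cardiomyocyte, 518 in astroTIPeR minus cardiomyocyte and 2 in the test between fibroblasts and astrocytes, and of the member probe sets, 8 in cardiomyocyte minus fibroblast, 1 in fibroTIPeR minus cardiomyocyte, 0 in fibroControl minus cardiomyocyte and 5 in astroTIPeR minus cardiomyocyte passed. With fibroTIPeR cells 1 to 3 alone, all probe sets that passed numbered 3 in fibroTIPeR minus fibroControl, 1325 in fibroTIPeR minus fibroblast and 2069 in fibroTIPeR minus cardiomyocyte, and of the member probe sets, 4 in fibroTIPeR minus fibroblast and 18 in fibroTIPeR minus cardiomyocyte passed. With fibroTIPeR cells 4 and 5 alone, all probe sets that passed numbered 225 in fibroTIPeR minus fibroControl, 0 in fibroTIPeR minus fibroblast, 14 in fibroTIPeR minus cardiomyocyte and 33 in the test between fibroblasts and astrocytes, and of the member probe sets, 1 in fibroTIPeR minus cardiomyocyte passed. Leaving out each cell in turn gave, for all probe sets, 0 to 42 in fibroTIPeR minus fibroControl, 0 to 375 in fibroTIPeR minus fibroblast, 79 to 643 in fibroTIPeR minus cardiomyocyte, 0 to 794 in the test between fibroblasts and astrocytes, 70 to 404 in fibroControl minus fibroblast, 476 to 658 in fibroControl minus cardiomyocyte, 19 to 105 in cardiomyocyte minus fibroblast, 424 to 866 in astroTIPeR minus cardiomyocyte and 7 to 1673 in astroTIPeR minus astroControl, and for the member probe sets, 0 to 1 in fibroTIPeR minus fibroblast, 5 to 10 in fibroControl minus cardiomyocyte, 3 to 5 in cardiomyocyte minus fibroblast and 4 to 10 in astroTIPeR minus cardiomyocyte.

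The labels number the cells of each group from 1, and the numbers name cells of different groups without tying them. Over 25 same-number pairs, deviations from the group means correlated at -0.30 to 0.24, and 4 of the 25 were over 0.1, so the cells were not treated as paired. With the number as a replicate block, all probe sets that passed numbered 0 in fibroTIPeR minus fibroControl, 7 in fibroTIPeR minus fibroblast, 320 in fibroControl minus fibroblast, 640 in fibroControl minus cardiomyocyte and 2 in astroTIPeR minus astroControl, and of the member probe sets, 5 in astroTIPeR minus cardiomyocyte passed.

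Single differences turned in sign 4 times, none of them past the threshold: Tagln in fibroTIPeR minus fibroblast was -1.88 with the 18S covariate and -2.05 with fibroTIPeR cells 4 and 5 alone, and Actn1 in fibroControl minus fibroblast was 0.032 without fibroblast 3 (-1.99 to 0.032 over the cells left out) and 0.38 as the mean of all its probe sets. In 61 cases a named difference kept its direction and no longer passed, and in 1 it came to pass. Groups of 2 to 6 cells limit every comparison, and probe sets near the median of the array may carry little signal.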
